A study of Danio rerio with 6 samples.

Results

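The transcriptome of the normal zebrafish (Danio rerio) embryo at 1 day post-fertilisation (1 dpf) was described from the wild-type control samples of a knockdown study. The controls were taken by their sample titles, which gave 3 of the 6 samples in the series, control replicates 1, 2 and 3. The description of the third control repeats the number of replicate 2, and its title was followed. The other 3 samples, embryos of the same age depleted of rapgef1b, were not compared with them here. Per the labels' protocols, ribosomal RNA was removed from whole-embryo total RNA, and libraries were read from both ends. The labels give the genotype as wild type, the age as 1 dpf and the source as embryonic cell, while the protocol speaks of embryos. They state neither the strain nor how many embryos were pooled, and they do not say whether control embryos had been injected with a control reagent. No label says that the 3 controls came from separate clutches, so the spread given here (SD, n = 3 throughout) may be partly technical.

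At this age the zebrafish embryo has completed gastrulation and most of segmentation. Its somites contract, primitive blood begins to circulate, pigment cells start to make melanin, and the embryo still lives on yolk inside its chorion. Hatching, feeding, image-forming vision and adult blood formation come later. Whole embryos were sampled, so every level below is an average over all tissues, and fewer cells of a type cannot be told apart from less RNA per cell.

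Levels are given as CPM, the count of a gene per 1000000 counts of its library, with totals scaled by TMM factors, a trimmed-mean correction for composition. CPM is not divided by transcript length, so a long transcript draws more counts than a short transcript of the same number of molecules, and the order of genes by CPM is an order of counts. Where 3 values follow each other they belong to control replicates 1, 2 and 3. The libraries were shallow, with 3801923, 3185229 and 2039455 counts on named rows. Of 47444 rows, 29536 had a count in any control and 19446 reached 1 CPM in all 3, a level that took 4, 4 and 2 counts. A row with no count in the 3 libraries together could still have had up to 0.338 CPM, the level of 3 counts over their summed totals, a limit that covers counting error only.

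Counts were concentrated in few genes. The 10 most abundant rows held 10.24%, 12.4% and 15.1% of the counts, and the 1000 most abundant held 50.5%, 51.2% and 51.6%. Averaged over the controls, 61 rows lay at 1000 CPM or above, 1937 between 100 and 1000 CPM, 9602 between 10 and 100 CPM and 9809 between 1 and 10 CPM. The first 3 rows were all ribosomal RNA. These were mt-rnr2 and mt-rnr1, the large and small ribosomal RNAs of the mitochondrion, at 25843, 38274 and 51807 CPM and 24957, 35581 and 39322 CPM, and zgc:158463, a row annotated as ribosomal RNA, at 9849, 11302 and 28008 CPM. All 3 stood lowest in control replicate 1 and highest in control replicate 3. Rows annotated as ribosomal RNA took 6.01%, 8.32% and 11.6% of the counts, while rows annotated as protein-coding took 88.5%, 86.2% and 82.7%. No row was found under the mt- symbols of the protein genes of the mitochondrial genome, from mt-nd1 to mt-cyb. They were therefore not analysed here, and the order of coding genes below does not include them under these symbols.

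Among named coding genes, the apolipoprotein B gene apobb.1 took the most counts, at 10257, 9743 and 8736 CPM. ApoB is the scaffold of the lipoprotein particles with which the yolk syncytial layer exports yolk lipid to the embryo. It was followed by the translation elongation factors eef1a1l1, at 8548, 8098 and 6920.1 CPM, and eef2b, at 7117, 6685 and 5938 CPM. Next came hmga1a, a chromatin architectural protein of proliferating embryonic cells, with 4553, 4618 and 4482 CPM, a spread of only 1.5% of its mean. The lipoprotein gene apoa1b stood at 3818, 4233 and 4232 CPM and the cytoskeletal beta-actin gene actb2 at 4027, 4022 and 3439.6 CPM. Their SDs were 5.84% and 8.81% of their means. The sarcomeric actin gene actc1b, at 4359.5, 4152 and 2735 CPM, and the muscle calcium pump gene atp2a1, at 3235, 3169.5 and 2259 CPM, were each lowest in control replicate 3. So were 17 of the first 20 named coding rows, against 38.4% of all single-row coding names of at least 10 CPM. Most of those names lay at lower levels, and no share at the level of the first 20 was worked out.

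The remaining places among the first 20 named coding rows were taken by the chaperone hsp90ab1 (3530.0 ± 366 CPM), both rows named for the periderm keratin krt4 (3134 ± 339 CPM and 2815 ± 286 CPM), and the titin genes ttn.1 (2143 ± 533 CPM) and ttn.2 (2143 ± 611 CPM), which encode the giant spring protein of the sarcomere. They also held bhmt (2149 ± 179.7 CPM), an enzyme of methionine metabolism, the mRNA-binding protein gene igf2bp1 (2112 ± 141 CPM), apoeb (2105 ± 57.8 CPM), and the poly(A)-binding protein gene pabpc1a (2084 ± 95.6 CPM). The fetuin gene fetub (2037 ± 197 CPM), the keratin gene cyt1 (2025 ± 249 CPM) and the ribosomal protein gene rps4x (1916 ± 241 CPM) completed them.

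**Figure D1:**
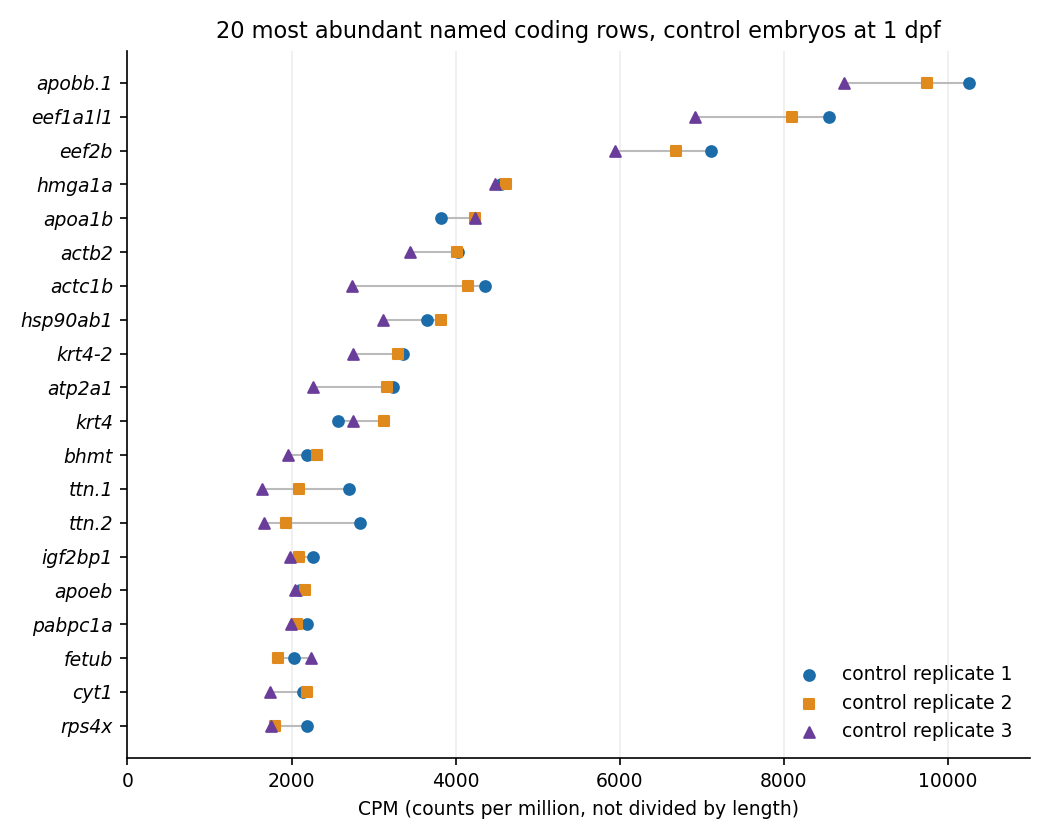
CPM (x axis, linear) of the 20 named coding rows with the most counts (y axis), with a point for each of the 3 control replicates and a grey line over their range. apobb.1, eef1a1l1 and eef2b lead, and 17 of the 20 rows have control replicate 3 (triangles) lowest, all but apoa1b, krt4 and fetub. Of all single-row coding names of at least 10 CPM, 38.4% have it lowest, a share not matched for level.

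The 100 named coding rows with the most counts were sorted by kind. There were 24 ribosomal protein genes, holding 2.72%, 2.75% and 2.37% of all counts, and 10 translation factors or poly(A)-binding proteins, holding 2.37%, 2.2% and 1.98%. RNA-binding and splicing proteins numbered 9, muscle genes 7, cytoskeletal genes outside muscle 6 and chromatin proteins 5. Only 4 apolipoprotein genes were among the 100, yet they held 1.75%, 1.72% and 1.59% of all counts. The 7 muscle genes held 1.64%, 1.44% and 1.05%. Each of the 10 kinds, the 28 unsorted rows among them, had its smallest share in control replicate 3. These are shares of all counts, ribosomal RNA included. Coding rows as a whole also held their smallest share there, with 88.5%, 86.2% and 82.7%. The chromatin proteins hardly differed, with 0.839%, 0.823% and 0.822%. These kinds were drawn up after the rows were seen.

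Many names had more than 1 row, marked by a suffix, and their levels have to be read with care. Of the coding names, 5019 had more than 1 row and 17800 had a single row. With the rows of a name added together, 24.3% of multi-row names had no count in any control, against 5.43% of single-row names. The median summed count was 16 for multi-row names and 101 for single-row names. The contrast was plain among genes that every cell needs. Of the ribosomal protein and proteasome genes, 6 of 23 multi-row names had no count at all, namely rpl30, rpl36a, rpl39, rps13, rps27a and psma5. Of the 92 single-row names of the same lists, 0 lacked counts.

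Other multi-row names showed the same thing. The mitotic kinase genes cdk1 and plk1 had 2 and 4 counts in all, while their single-row partners in the cell cycle did not lack counts, as with ccnb1, the cyclin that activates Cdk1, at 105, 93.5 and 91.2 CPM. The purine salvage gene hprt1, widely used as a reference gene, had 2 counts, and col1a1a, a chain of type I collagen, had 1. Its paralog col1a1b had 5647 counts. The main muscle creatine kinase gene ckma had no count while its single-row paralog ckmb stood at 1062, 1039 and 771 CPM. In some multi-row names the counts lay in 1 row, as in rps3a, where row rps3a-2 had 766, 575 and 448 counts and row rps3a 0, 0 and 0. In krt4 they were divided, with 12667, 10265 and 5447 counts in row krt4-2 and 9679, 9740 and 5453 in row krt4. How reads that fit several places were treated is not given in the sources used here, and its part in these values was not tested. A low or zero value of a multi-row name is therefore not read as low expression, and all counts and medians of marker lists below are over single-row names. The same limit holds for single-row names with close relatives in sequence, as in globin, crystallin or odorant receptor families, and was not tested.

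**Figure D2:**
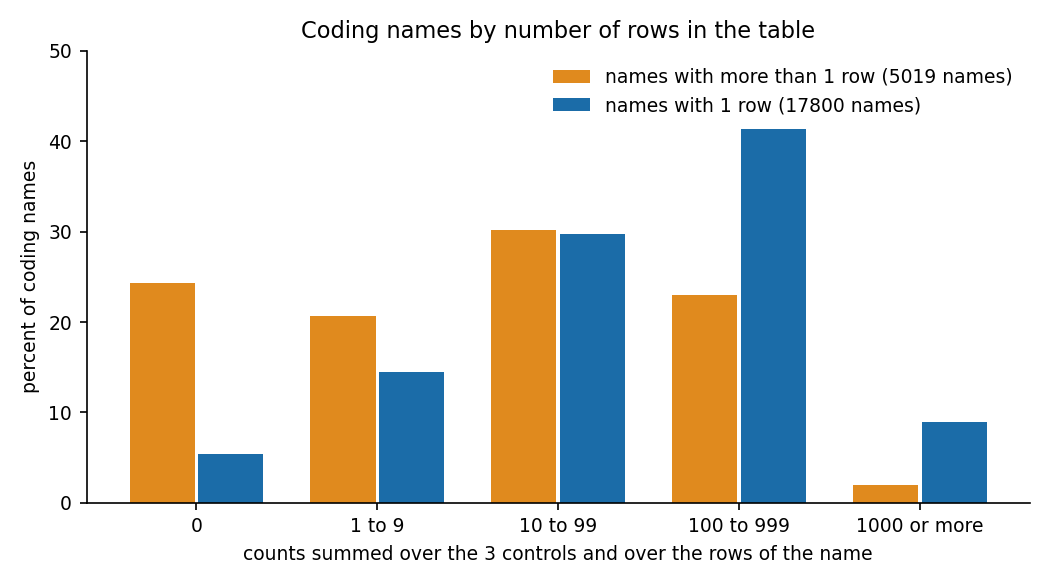
Percent of coding names (y axis) by the counts they collected over the 3 controls (x axis), for names with more than 1 row (left bars, 5019 names) and names with 1 row (right bars, 17800 names). Names with more than 1 row have no count in 24.3% of cases and names with 1 row in 5.43%.

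Marker lists for the tissues of the embryo and for later stages were then read. Of all 17800 single-row coding names, 75.9% reached 1 CPM in all 3 controls, and the median level was 11.5 CPM. Of the 46 lists, 21 had every single-row name at that level and 12 had a smaller share than 75.9%. These 12 lists were adult globin, reproduction, digestive enzymes, lymphoid, pituitary, thyroid, primordial germ cells, photoreceptors, oligodendrocyte and myelin, maternal and blastula, neurotransmitter identity and ionocytes. They ran from 0 of 4 names in adult globin and 0 of 8 in digestive enzymes upwards. Photoreceptors (6 of 9), neurotransmitter identity (9 of 13) and ionocytes (6 of 8) lay within 1 name of the share of all coding names.

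**Figure D3:**
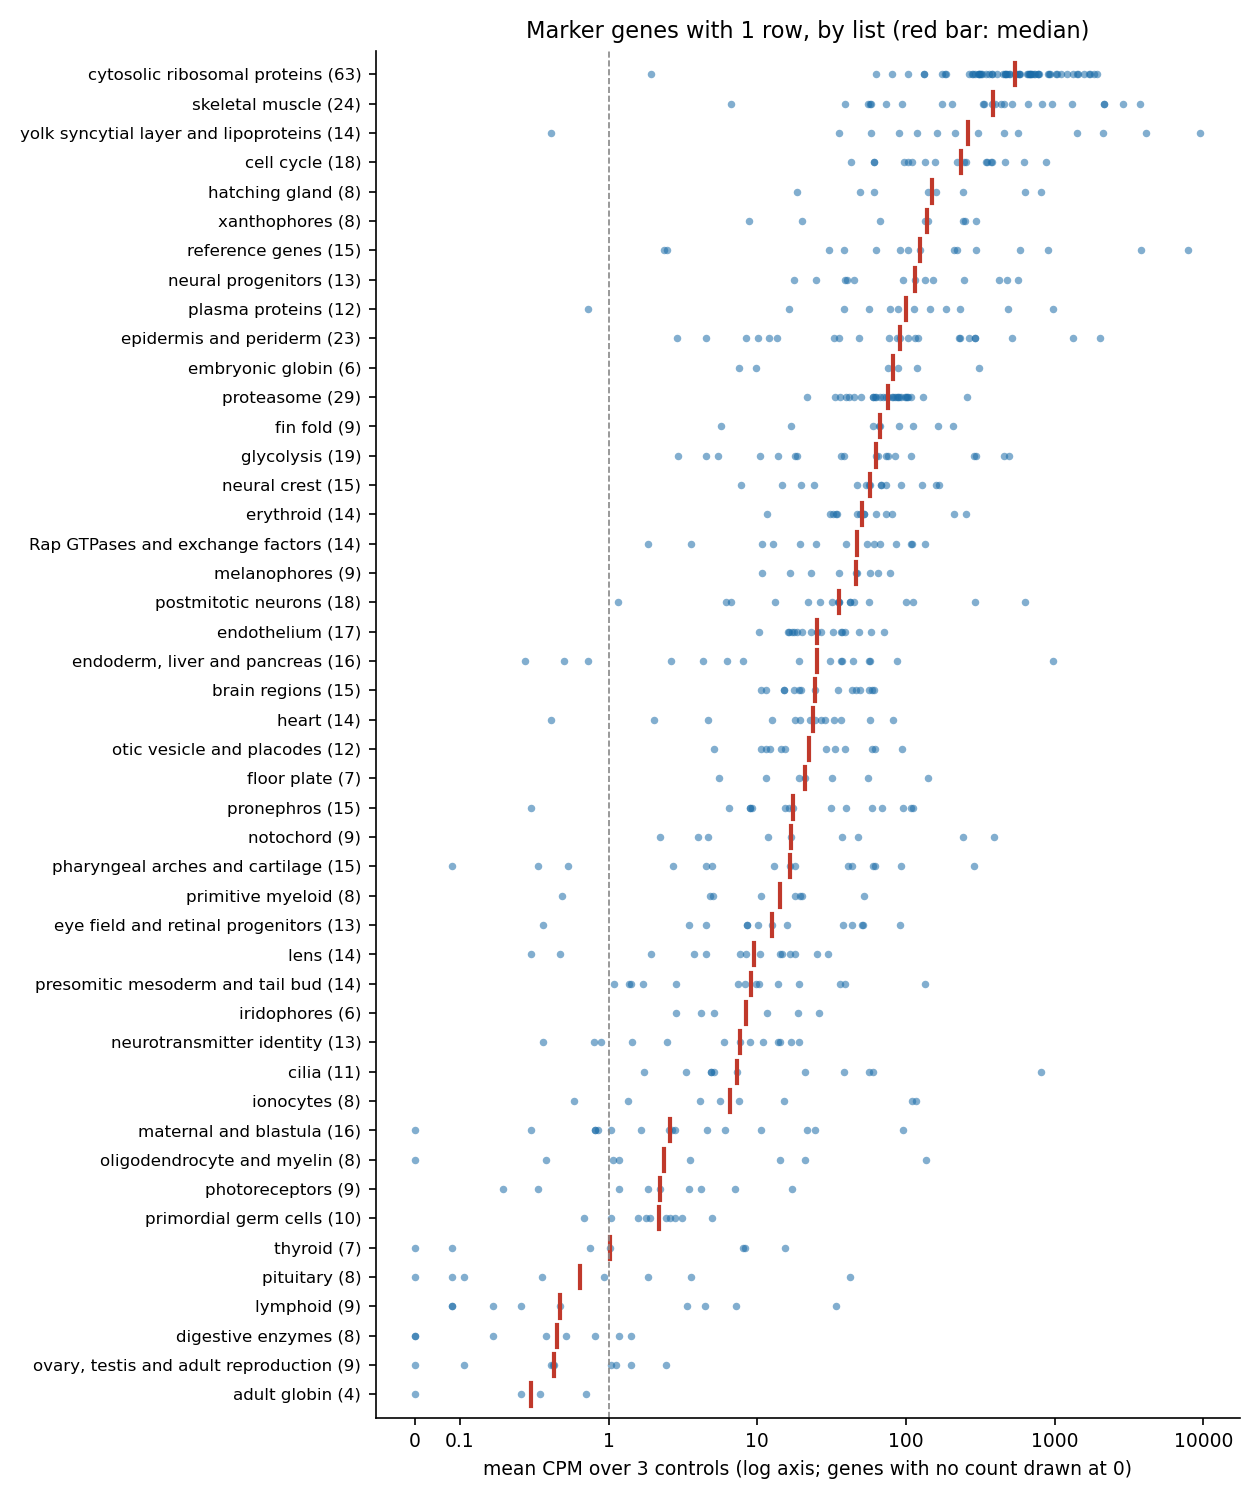
Mean CPM over the 3 controls (x axis, log scale, genes with no count drawn at 0) of every single-row marker gene, in rows by list with the number of genes in brackets; red bars are list medians and the dashed line is 1 CPM. Ribosomal protein, skeletal muscle and yolk lipoprotein lists lie at the top, and adult globin, reproductive and digestive enzyme lists at the bottom.

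Genes of skeletal muscle, the tissue that drives the first movements of the tail, took many counts. All 24 single-row muscle genes reached 1 CPM in all 3 controls, with a median of 387 CPM and a sum of 21243, 19187 and 14442 CPM. Besides actc1b, atp2a1 and the titins, the list was led by the tropomyosin gene tpma at 1434, 1425 and 1058 CPM. Creatine kinase ckmb, given above, and the fast myosin heavy chain gene myhz1.1, at 959, 884 and 641 CPM, came next. Each was lowest in control replicate 3. Genes that specify muscle were also read. The myogenic factors myod1 and myog stood at 76.2, 50.7 and 47.4 CPM and 40.3, 36.6 and 39.8 CPM, and myf5, the factor of the earliest muscle precursors, at 6.64, 7.39 and 6.05 CPM.

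Heart genes reached 1 CPM in 12 of 14 single-row names, with a median of 23.5 CPM. The ventricular myosin gene vmhc had 82.8, 80.9 and 80.6 CPM, the atrial myosin gene myh6 27.3, 28.6 and 42.8 CPM and the myosin light chain gene myl7 21.2, 34.7 and 30.2 CPM. vmhc differed little across the controls, while myh6 was highest in control replicate 3. The cardiac transcription factors gata4, gata5 and gata6 averaged 27.0 ± 0.203 CPM, 36.8 ± 3.41 CPM and 57.1 ± 5.81 CPM. For rows between 10 and 100 CPM, counting alone gives a median spread of 11.8%. The smaller SDs of vmhc, 1.45% of its mean, and gata4, 0.753%, are therefore not read as steady levels. Both gata5 and gata6 stand on the endoderm, liver and pancreas list as well. The hormone genes nppa and nppb, natriuretic peptides of the working heart muscle, were at 2.01 CPM and 0.410 CPM, the second from only 4 counts.

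Globin counts were almost wholly of embryonic genes. Embryonic globins reached 1 CPM in 6 of 6 single-row names, with hbae3, an alpha globin, at 311, 394 and 229.8 CPM and the beta globin genes hbbe1.3 and hbbe1.1 at 117, 122 and 119.9 CPM and 81.2, 113 and 71.0 CPM. The list summed to 608, 744 and 485 CPM, lowest in control replicate 3. Adult globins reached 1 CPM in 0 of 4 names and summed to 1.59, 0.321 and 2.02 CPM, with ba1 at no count. Red cell genes outside the globins reached 1 CPM in 14 of 14 names. The transferrin receptor gene tfr1a, which imports iron, stood at 284, 251 and 224 CPM, the membrane skeleton gene sptb at 216, 227 and 184 CPM and the anion exchanger gene slc4a1a at 69.5, 91.9 and 79.6 CPM. gata1a, the master regulator of red cells, had no count but is a multi-row name.

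Genes of white cells and vessels were also read. In the primitive myeloid list 7 of 8 names reached 1 CPM, among them the neutrophil peroxidase gene mpx at 16.7, 21.2 and 16.1 CPM, the leukocyte actin-bundling gene lcp1 at 18.3, 19.6 and 20.2 CPM and the myeloid factor spi1b at 10.4, 9.96 and 11.6 CPM. In the lymphoid list 4 of 9 names did so. These were rag1 (3.36 ± 0.904 CPM) and rag2 (4.47 ± 1.31 CPM), the recombinase genes of lymphocytes, ikzf1 (7.18 ± 1.23 CPM) and pax5 (33.7 ± 3.65 CPM), which is also a gene of the midbrain-hindbrain boundary. The T cell genes cd8a and zap70 had 1 count each. All 17 single-row endothelial genes reached 1 CPM in all 3, including the endothelial factor fli1a at 77.0, 71.0 and 65.0 CPM, the VEGF receptor gene kdr at 59.5, 52.0 and 64.0 CPM and the junction gene cdh5 at 44.1, 51.4 and 49.9 CPM.

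In the nervous system the progenitor list was led by Notch receptors, which hold back differentiation. notch3 had 598, 613 and 483 CPM, notch1b 514, 490.4 and 438 CPM and notch1a 436, 445 and 389 CPM, all lowest in control replicate 3. The progenitor factors sox3 and sox2 stood at 248, 249.9 and 235 CPM and 137, 163 and 103 CPM. All 13 single-row progenitor genes passed 1 CPM, with a median of 115 CPM. Neuronal genes were led by elavl3, an RNA-binding protein of newborn neurons, at 690.0, 623 and 583 CPM, and the tubulin gene tubb5 at 305, 263 and 307 CPM. Of the postmitotic neuron list, 17 of 18 names passed, with a median of 35.6 CPM.

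Of the genes of transmitter identity, 9 of 13 names passed 1 CPM, with a median of 7.61 CPM. The inhibitory genes slc32a1 and gad2, for GABA transport and synthesis, had 17.8, 18.6 and 21.2 CPM and 16.7, 17.3 and 16.6 CPM, and the vesicular glutamate transporter gene slc17a6b had 12.5, 15.7 and 13.1 CPM. The cholinergic transporter gene slc18a3a, a motor neuron gene, had 13, 12.8 and 16.6 CPM. The neuropeptide genes hcrt and oxt were near the limit, with 3 and 6 counts over the 3 libraries. All 15 single-row regional genes were detected, from forebrain foxg1a (48.9 ± 5.80 CPM) and fore- and midbrain otx2 (46.5 ± 3.86 CPM) and otx1b (61.0 ± 7.0 CPM) to en2b of the midbrain-hindbrain boundary (35.0 ± 3.25 CPM) and hindbrain mafba (56.6 ± 7.55 CPM). In the myelin list, plp1a stood at 134, 131 and 144 CPM and the oligodendrocyte factor olig2 at 21.5, 23.4 and 17.6 CPM. Of the genes for myelin basic protein, mbpa had no count. The multi-row name mbpb had 136, 141 and 95 counts in its row mbpb, a mean of 43.1 CPM.

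For the eye, genes of its progenitors and of the early lens were read. Among retinal progenitor genes, 12 of 13 names passed 1 CPM, led by pax6a at 96.9, 86.4 and 92.2 CPM, pax6b at 50.7, 48.5 and 55.4 CPM and the retinal homeobox gene rx1 at 51.5, 50.1 and 49.4 CPM. The retinal ganglion cell factor atoh7 had 3 counts. In the lens list 12 of 14 names passed, with the crystallin genes crybb1, cryba1b and cryba1l1 at 29.8 ± 0.526 CPM, 18 ± 6.0 CPM and 16.6 ± 2.18 CPM. Of the gamma-M crystallins, proteins of the mature fibre cell, 9 of 17 had no count, against 5.43% of all single-row coding names. Photoreceptor genes passed 1 CPM in 6 of 9 names, with a median of 2.22 CPM. They were led by pde6c (17.04 ± 4.17 CPM), pde6b (7.10 ± 1.77 CPM) and gnat2 (4.21 ± 2.03 CPM). The rod opsin gene rho had 2 counts and the green cone opsin gene opn1mw1 2. In the ear, the otolith gene stm stood at 84.7, 92.2 and 107 CPM, and all 12 placode genes passed 1 CPM.

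Axial and posterior mesoderm were both read. In the notochord list 8 of 9 names passed 1 CPM. The extracellular matrix gene cmn (calymmin) had 442, 369.7 and 365 CPM, matn4 (matrilin 4) 237, 256 and 229.8 CPM, and ta, the Brachyury gene, 50.2, 37.3 and 54.9 CPM. Floor plate genes all passed, with sulf1, an extracellular sulfatase, at 153, 135 and 135 CPM and the axon guidance gene ntn1b at 49.1, 62.9 and 54.9 CPM. In the presomitic mesoderm and tail bud list 11 of 14 names passed, with a median of 9.06 CPM. The Notch ligand gene dld, also active in the nervous system, led with 140.1, 142 and 121 CPM, and wnt3a, a tail bud signal, had 35.0, 41.4 and 40.3 CPM. Oscillating clock genes were low, with her1 at 8.49, 5.78 and 10.6 CPM and her7 at 2.12, 0.963 and 2.02 CPM, as was the presomitic factor msgn1 at 8.76, 5.46 and 8.06 CPM. The segment boundary genes mespab, mespbb and ripply2 averaged 1.37 ± 0.121 CPM, 1.09 ± 0.374 CPM and 1.41 ± 0.985 CPM, each from 9 to 12 counts.

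Every single-row gene of the neural crest list passed 1 CPM, with a median of 57.7 CPM and a sum of 1059.8, 1045 and 1003 CPM, a spread of 2.86% of the mean. tfap2c and tfap2a, crest and epidermal factors, had 157, 169.6 and 171 CPM and 155, 160.3 and 159.7 CPM, and crestin, a zebrafish crest marker, 140.1, 125 and 119 CPM. The crest specifiers sox10, foxd3 and snai2 averaged 53.5 ± 7.64 CPM, 47.1 ± 3.15 CPM and 57.7 ± 7.37 CPM. All 3 pigment lists were past the threshold in every single-row member. For melanophores, pmela, a protein of the melanosome, had 69.3, 79.3 and 85.2 CPM, the melanin enzyme genes tyr and dct 71.7, 74.2 and 47.4 CPM and 44.3, 43.4 and 53.9 CPM, and the lineage factor mitfa 15.1, 17.3 and 17.1 CPM. On the xanthophore list, the pteridine enzyme gene gch2 had 116, 166 and 123 CPM. The purine synthesis genes paics and gart had 317, 305 and 265 CPM and 264, 226 and 254 CPM. In whole embryos these purine gene counts cannot be assigned to that lineage, nor can the counts of the melanosome and melanin genes be assigned to melanophores alone. For iridophores, pnp4a, for crystal-forming purines, had 14.9, 8.67 and 11.6 CPM. The cartilage list held 12 of 15 names past 1 CPM, led by col11a2, a fibril collagen, at 302, 294 and 270.1 CPM. The bone and mature cartilage genes bglap and col10a1a had 2 and 1 counts.

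Genes of the embryo's surface took many counts. All 23 single-row epidermal genes passed 1 CPM and summed to 5726, 6422 and 5684 CPM, before the multi-row krt4. cyt1 and cyt1l, keratins of the outer layer, had 2143, 2192 and 1739 CPM and 1083, 1493 and 1409 CPM, and ppl, the cell envelope gene periplakin, 523, 523 and 507 CPM. For the hatching gland, which dissolves the chorion, the hatching enzyme genes he1a and he1b had 567, 720.4 and 621 CPM and 216, 262 and 249 CPM, and he2 had 50.7, 48.2 and 85.2 CPM. All 8 of its single-row genes passed, led by the cathepsin gene ctsla at 794, 818 and 809 CPM. In whole embryos the counts of ctsla cannot be assigned to the hatching gland alone. klf17 and tfap2a, also on this list, stand on the red cell and neural crest lists as well. Fin fold genes passed in 9 of 9 names, with the hemicentin gene hmcn2 at 220.0, 214 and 191 CPM and and1, an actinotrichia protein, at 44.1, 79.6 and 56.4 CPM. Of the ionocyte genes, 6 of 8 passed. Carbonic anhydrase ca2 and the sodium pump subunit gene atp1b1b had 106, 125 and 121 CPM and 95.5, 106 and 130.0 CPM, and the ammonia transporter gene rhcgb had 6 counts.

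The yolk lipoprotein list passed 1 CPM in 13 of 14 names and summed to 19518, 19675 and 18401 CPM. Besides apobb.1, apoa1b and apoeb it was led by apoba at 1460.0, 1481 and 1297 CPM and apoc1 at 551, 523 and 629 CPM. mtp, the transfer protein that loads lipid onto ApoB, had 90.5, 85.7 and 94.2 CPM. The thyroid hormone carrier gene ttr had 4 counts. Plasma protein genes, which the yolk syncytial layer shares with the later liver, passed in 11 of 12 names, with the transferrin gene tfa at 941, 1006 and 969 CPM and the complement gene c3a.1 at 501, 478 and 482 CPM. By contrast fabp10a, the standard marker of differentiated hepatocytes, had 6 counts. The gut and pancreas factors foxa3, prox1a and neurod1 averaged 44.3 ± 1.51 CPM, 87.1 ± 8.36 CPM and 37.3 ± 5.11 CPM, the last 2 also being neural genes, and the glucagon gene gcga 2.62 ± 1.26 CPM. Of the digestive enzymes, 0 of 8 names passed, their sum was 2.92, 5.46 and 5.04 CPM, and prss59.2 and ela3l had no count. In the pronephros list 14 of 15 names passed, with the kidney cadherin gene cdh17 at 111, 113 and 110.4 CPM and the sodium pump gene atp1a1a.4 at 104, 112 and 106 CPM.

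Hormonal, germline and maternal lists held many genes near the detection limit. Pituitary hormone genes had few counts, with the prolactin gene prl at 1.06, 1.93 and 2.52 CPM, the growth hormone gene gh1 at 1 count in all and smtlb, a somatolactin gene, at none. The thyroid peroxidase gene tpo had no count and the thyroglobulin gene tg averaged 1.01 ± 1.14 CPM. All 10 germ cell genes had counts, yet they summed to 25.2, 20.9 and 22.7 CPM, with nanos3 at 3.18, 5.14 and 1.01 CPM and ddx4, the vasa gene, at 2.92, 2.89 and 2.02 CPM. Of the reproductive list, 1 of 9 names passed, that being the gonadal factor gsdf (2.44 ± 0.805 CPM), and insl3 had no count. Among maternal and blastula genes, the pluripotency factors nanog and pou5f3 averaged 2.55 ± 1.54 CPM and 6.04 ± 1.83 CPM, and the oocyte genes zar1 and buc 1.64 ± 1.05 CPM and 0.806 ± 0.639 CPM. org had no count. sox19b, at 104, 98.3 and 86.2 CPM, and the apelin receptor genes aplnra and aplnrb, at 26, 27.3 and 20.2 CPM and 21.0, 23.1 and 21.2 CPM, led that list. sox19b is also a neural progenitor gene, and it stands on that list as well.

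Cell cycle genes were read at high counts. All 18 single-row cell cycle genes passed, with a median of 234 CPM. The proliferation marker gene mki67 had 1003, 875 and 757 CPM, the sliding clamp gene pcna 702, 594 and 559.8 CPM and the ribonucleotide reductase gene rrm1 488, 461 and 433 CPM. All 3 were lowest in control replicate 3 and highest in control replicate 1. In glycolysis, the aldolase genes aldoaa and aldoab had 515, 522 and 448 CPM and 505, 470.2 and 386 CPM and gapdh 302, 356 and 236 CPM. The cilia list passed in 11 of 11 names, with a median of 7.35 CPM. Its only member at 100 CPM or more was the tubulin gene tubb4b, at 815, 884 and 713 CPM. The ciliary master factor foxj1a had 21.8, 24.4 and 17.1 CPM.

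Of genes in common use as references, eef1a1l1 and actb2 were in the first rows of the table, and ppiaa, a cyclophilin, stood at 960.2, 984 and 769 CPM. The ribosomal protein gene rpl11 had 537, 551 and 667 CPM, and it was highest in control replicate 3, unlike eef1a1l1 and actb2. lsm12b, mob4 and tbp, genes chosen elsewhere for their steady level, had 116, 101 and 93.2 CPM, 64.2, 51.7 and 71.6 CPM and 37.7, 32.1 and 45.4 CPM. rpl13a, another common choice, had 21 counts on 2 rows.

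Families differed in how many of their genes had no count. Of all single-row coding names, 967 (5.43%) had no count in any control, 600 of them clone or LOC names. Odorant receptors had no count in 59 of 87 names and trace amine receptors in 9 of 19, and no member of either family reached 1 CPM in all 3. The part of reads that fit several members of a family was not tested. Chemokine ligands reached 1 CPM in all 3 in 1 of 28 names, against 75.9% of all single-row coding names. That name was cxcl12a, the guidance cue of migrating primordia, at 44.6 CPM on average. The immunoproteasome subunit genes psmb8a, psmb9a and psmb10, which are induced by interferon, had no count in any control, whereas all 29 single-row genes of the standard proteasome passed, with a median of 76.3 CPM. Of 68 cytochrome P450 names, only the bile acid synthesis genes cyp7a1 and cyp8b1 had no count. That is a smaller share than the 5.43% of all single-row coding names.

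Families of developmental genes were read in the same way, beside the 75.9% of all single-row coding names. All 45 single-row Hox genes and all 13 single-row Pax genes reached 1 CPM in all 3 controls, with medians of 18.1 and 21.7 CPM. Sox genes did so in 18 of 21 names, Wnt ligands in 15 of 17 and FGF ligands in 15 of 23. Their medians were 53.5, 9.0 and 4.91 CPM, against 11.5 CPM for all such names. Collagens reached 1 CPM in all 3 controls in 41 of 46, with col1a2, a chain of type I collagen, at 931, 957 and 729.6 CPM. The families were chosen after the values were seen.

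Zebrafish carry many gene pairs from a genome duplication in the ancestor of teleost fish, usually named with a final a and b. Among the 1294 pairs of single-row names with at least 10 CPM in the higher member, 427 pairs (33.0%) lay at least 4-fold apart in CPM in all 3 controls. The a member was the higher in 254 and the b member in 173. A further 369 pairs were within 2-fold in all 3. For the 1205 pairs with a count of both members in every control, the ratio had a median SD between controls of 0.24 on the log2 scale against a median size of 1.40. Transcript lengths were not used, so a ratio of CPM holds any difference in length, and names that differ only in a and b are not always duplicates of each other.

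Several pairs lay far apart. In ribosomal protein S8, rps8a averaged 903 ± 80.7 CPM and rps8b 1.94 ± 0.439 CPM. The tetraspanin gene cd81a had 737 ± 50.1 CPM and cd81b 2.39 ± 0.136 CPM. In the microfibril gene fibrillin 2 the b member led, with 0.708 ± 0.352 CPM for fbn2a and 560.1 ± 21.9 CPM for fbn2b. Only 1 count of ctsbb, a cathepsin B gene, was read beside 318 ± 12.7 CPM of ctsba, and 2 counts of the collagen gene col28a2b beside 468 ± 42.5 CPM of col28a2a. The other pairs at the extreme were ndrg1a/ndrg1b, b3gnt2a/b3gnt2b and tecra/tecrb, in which the lower member had 1 or 2 counts. The elastic fibre gene efemp2b and sumo2a, of the SUMO protein modifiers, had no count. efemp2a, at 102 ± 16.4 CPM, was at least 301-fold higher and sumo2b, at 99.2 ± 11.8 CPM, at least 293-fold higher, with the lower member set at 3 counts over the 3 libraries.

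Well-studied pairs showed the whole range. hmga1a and hmga1b lay far apart, with 4551 ± 68.2 and 32.1 ± 12.8 CPM, a log2 ratio of 7.22 ± 0.55. The apolipoprotein E pair ran the other way, with apoea at 58.3 ± 16.8 and apoeb at 2105 ± 57.8 CPM (-5.22 ± 0.46). In the radial glial gene fabp7 nearly all counts were of fabp7a (45.0 ± 8.10 CPM, against 1.1 ± 0.198 CPM for fabp7b), and in the haematopoietic factor gata2 of gata2a (32.3 ± 3.96 CPM, against 1.33 ± 0.516 CPM for gata2b). In the sarcomeric actins actc1a had 454 ± 90.0 and actc1b 3749 ± 884 CPM (-3.04 ± 0.12), and both were lowest in control replicate 3. The melanophore factor mitfa had 16.5 ± 1.22 and mitfb 4.07 ± 0.769 CPM (2.04 ± 0.18).

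Other pairs were read nearly evenly. The log2 ratio of a over b was -0.18 ± 0.05 for notch1a and notch1b, 0.13 ± 0.09 for the aldolases aldoaa and aldoab, 0.15 ± 0.08 for marcksl1a and marcksl1b, and -0.06 ± 0.25 for the kidney factor genes wt1a and wt1b. Ratios of intermediate size were found for the crest and cartilage factors sox9a and sox9b (0.46 ± 0.12), the neural factors sox11a and sox11b (-0.79 ± 0.11) and sox4a and sox4b (1.27 ± 0.26), and pax6a and pax6b (0.83 ± 0.10). The cold-inducible RNA-binding genes cirbpa and cirbpb stood at -0.69 ± 0.08 and the muscle pair tnnt3a and tnnt3b at 0.93 ± 0.12. For calmodulin the sides differed between loci, with 1.61 ± 0.46 for calm1a and calm1b and -3.52 ± 0.19 for calm3a and calm3b. Pairs with a multi-row member are not read as ratios. In ckma/ckmb, ptmaa/ptmab, dlx2a/dlx2b, atoh1a/atoh1b and foxi3a/foxi3b such a member had 0 counts, while in others, such as actb1/actb2, both members had counts (10615 and 34521).

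**Figure D4:**
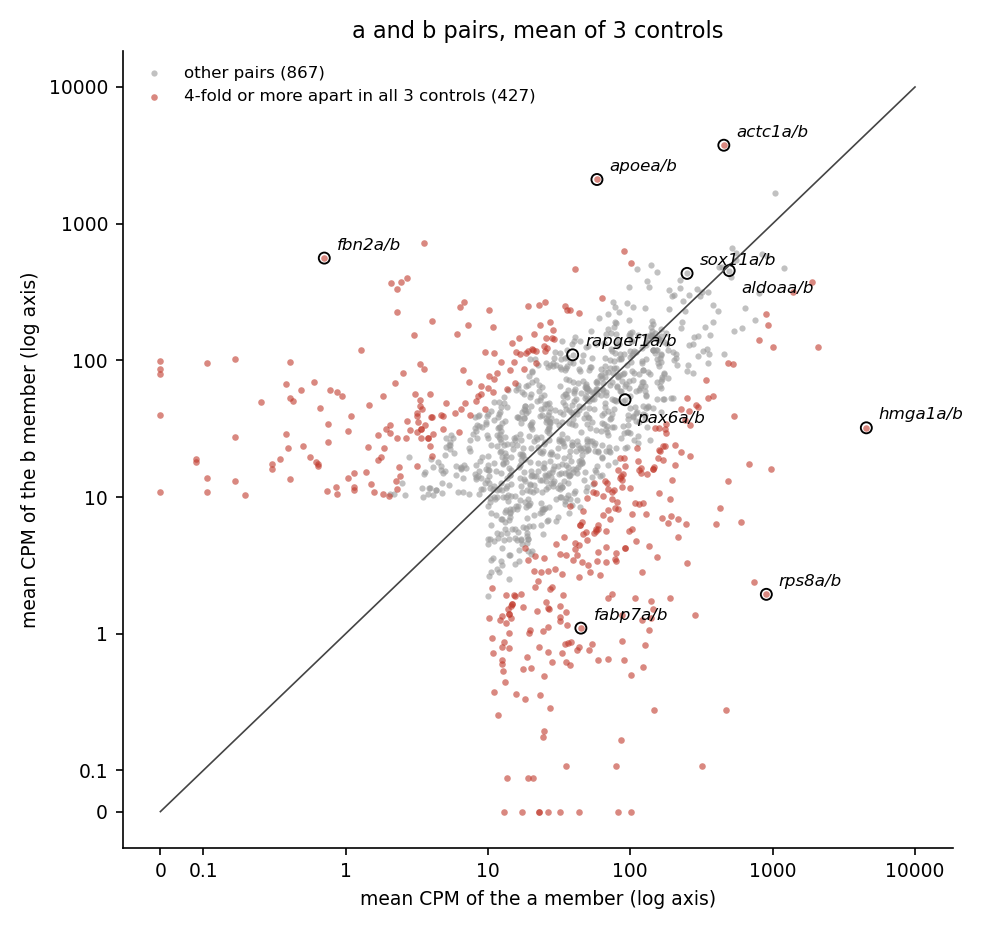
Mean CPM over the 3 controls of the a member (x axis) and the b member (y axis) of 1294 single-row pairs, both on log axes with no count drawn at 0; the line marks equal CPM. Red points (427 pairs) lay at least 4-fold apart in all 3 controls, and circles mark named pairs such as hmga1a/b and apoea/b on opposite sides of the line.

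rapgef1b, the gene targeted in the study's other samples, encodes an exchange factor that loads Rap GTPases with GTP. In the controls it had 109, 111 and 109 CPM, an SD of 1.31% of its mean, and its paralog rapgef1a had 38.7, 36.0 and 43.3 CPM. For rows between 100 and 1000 CPM, counting alone gives a median spread of 4.67%. The smaller SD of rapgef1b, from 974 counts in all, is therefore not read as a steady level. The log2 ratio of rapgef1a over rapgef1b was -1.48 ± 0.15, and rapgef1b was the higher in all 3 controls. Among the GTPases themselves, rap1b had 129, 132 and 144 CPM, rap1aa 94.0, 77.1 and 87.7 CPM and rap2c 73.3, 66.2 and 60.5 CPM. The exchange factor genes rapgef2 and rapgef6 had 109.9, 104 and 109 CPM and 54.4, 58.1 and 51.9 CPM, and the cAMP-regulated ones rapgef3 and rapgef4 averaged 10.8 ± 1.79 CPM and 12.9 ± 3.82 CPM.

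The controls were close to each other. The common biological coefficient of variation, edgeR's estimate of the spread beyond counting, was 10.17% over 16806 rows. For rows between 100 and 1000 CPM the median coefficient of variation was 7.36%, against 4.67% from counting alone. For rows between 1 and 10 CPM it was 31.3%, against 32.2% from counting. Control replicates 1 and 2 were the closest, with 49 of 11600 rows of at least 10 CPM apart 2-fold or more. Replicates 1 and 3 had 169 such rows and replicates 2 and 3 had 137. Control replicate 3 was also the shallowest library, and without it the coefficient was 8.08%.

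Control replicate 3 stood apart in particular genes. Of the 8082 rows of at least 20 CPM, the 10 with the highest spread beyond counting held 5 uncharacterised LOC rows and zgc:158463. LOC101885394, for example, had 492, 644 and 3731 CPM and LOC110439441 92.1, 92.8 and 747 CPM. The others were LOC110439626, LOC110438492 and LOC110439372. The heat-inducible chaperone gene hsp70.1 had 23.9, 33.4 and 95.2 CPM, and the remaining 3 were rows of multi-row names, ppm1bb, hnrnpa0a and hbbe3-2. All but hbbe3-2, a row of an embryonic beta globin, were highest in control replicate 3. The share of ribosomal RNA, given above, was highest in the same library, and its part in these values was not tested.

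Genes of many lists had their lowest value in that library. Of the skeletal muscle genes of at least 10 CPM, 19 of 23 had their lowest value in control replicate 3, against 38.4% of all single-row coding names of that level. So did 50 of 62 ribosomal protein genes and 12 of 13 neural progenitor genes. The same was found for 19 of 29 proteasome genes, 12 of 16 glycolysis genes, 12 of 18 cell cycle genes, 9 of 13 common reference genes and 5 of 6 floor plate genes. In the heart list 2 of 11 and in the endothelial list 5 of 17 were lowest there. The 38.4% is not matched for level, since 9602 rows lay between 10 and 100 CPM and 1937 between 100 and 1000 CPM. The muscle and ribosomal protein lists had medians of 387 and 545 CPM, the heart and endothelial lists 23.5 and 25.4 CPM. Whether these shares differ from those of other names at the same level was not tested. The summed level of the muscle list had a spread of 19.1% of its mean and that of embryonic globins 21.1%. Most tissue lists had a smaller spread, for instance neural crest at 2.86%, heart at 2.08%, endothelium at 2.60% and retinal progenitors at 1.66%. The spread that counting alone gives for a list sum was not worked out. These small values are therefore not read as steady levels.

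At the low end of spread, 3019 of the 8082 rows varied no more than counting alone allows, so that no 10 lowest could be named among them. With 3 libraries, such a spread is not read as a steady level. Of abundant genes, ybx1, a cold-shock domain RNA-binding protein, had 1855, 1857 and 1836 CPM, and the elongation factor gene eef1g had 788, 790.1 and 784 CPM. Both genes were picked for illustration after their values were seen, and neither is read as steady.

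**Figure D5:**
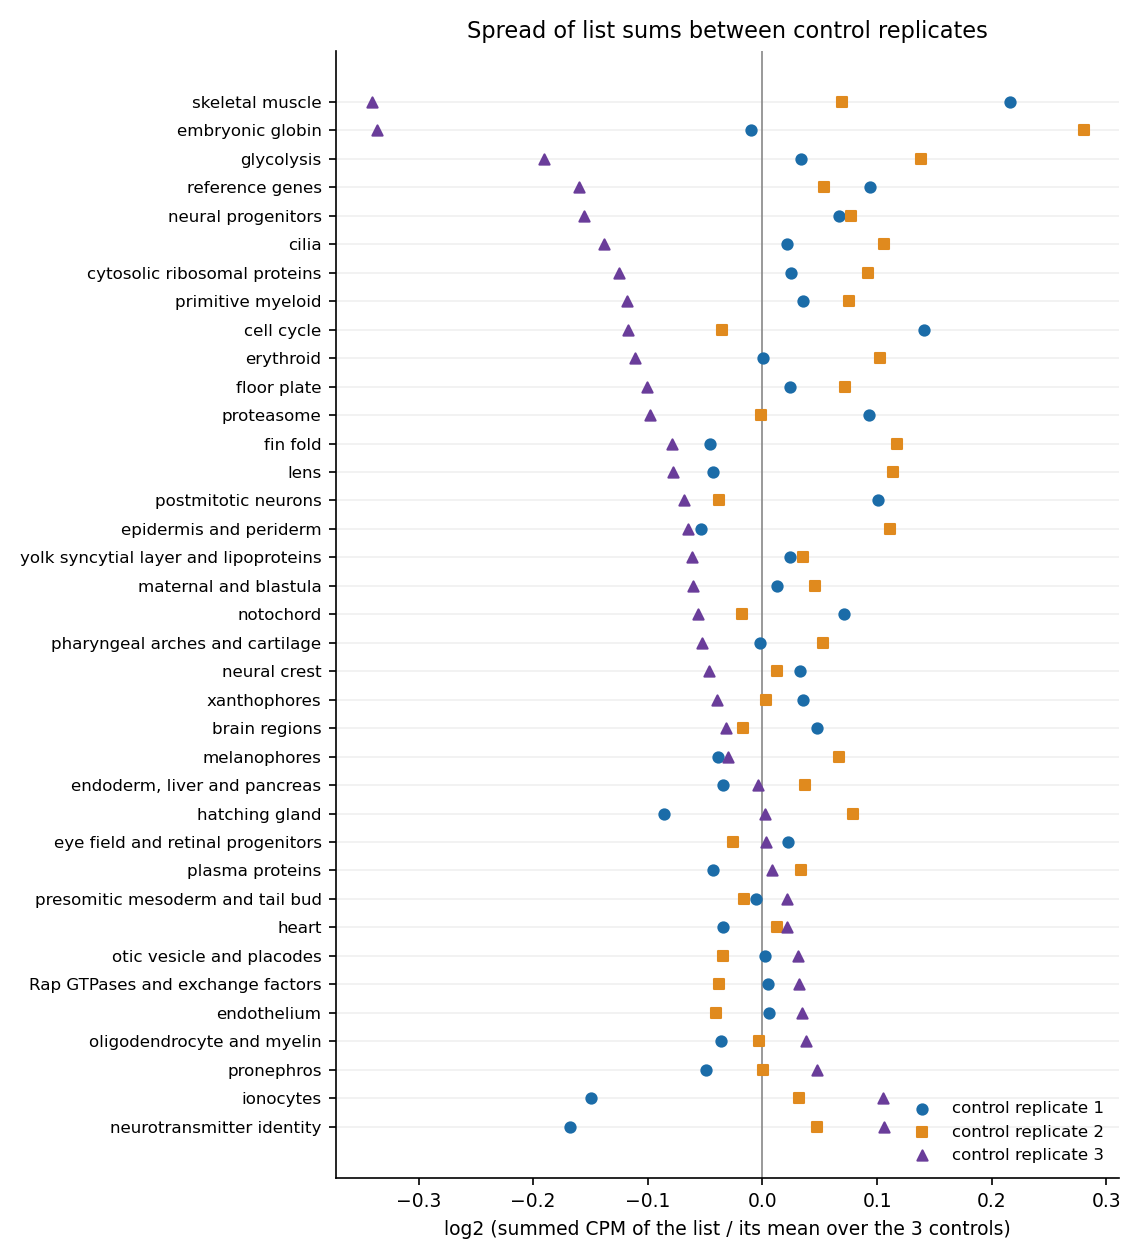
log2 ratio of each list's summed CPM (single-row members) in a control replicate to its mean over the 3 controls (x axis), for lists with a mean sum of at least 100 CPM (y axis), with a point for each replicate. Control replicate 3 (triangles) is lowest for skeletal muscle and embryonic globin, and neural crest, heart and endothelium sums stay near 0 in all 3.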

How the data were processed

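Whole-embryo RNA of 3 control samples at 1 dpf was analysed. The values are raw read counts per gene name in the table the authors deposited. The submitters' processing notes name FastQC, cutadapt, STAR and DESeq2 and the genome build GRCz11, with no role given. The strand setting, the annotation and the treatment of reads with several possible places are not given in the sources used here, so overlapping and antisense genes cannot be told apart. A row without a gene name, 0.189%, 0.18% and 0.154% of control counts, was left out. Gene types come from the RefSeq table of assembly GRCz12tu, where 38147 rows matched by symbol and 2134 by an older symbol, and no coordinates are given.

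CPM used library sizes scaled with TMM factors over all 6 libraries (edgeR 4.0.16, R 4.3.3), which for the controls were 0.991, 0.978 and 0.973. The common dispersion of the controls was estimated with edgeR's estimateDisp over rows with at least 10 counts in at least 2 controls, and was tested on simulated data. Nothing was tested between groups. Pairs were meant to be compared per coding length; with no lengths, CPM was used. Alternatives were other scalings (DESeq2 1.42.0 size factors, upper quartile, totals, TMM over the controls), library sizes without the most abundant rows, multi-row names added together, thinning to the smallest library, other thresholds, and leaving out each control.

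Named genes were drawn by a rule, and not all that it gives are printed: the 20 rows, and the 20 named coding rows, with the highest mean CPM, the 5 highest members of each list and members with no count, the 10 widest a and b pairs with a list of known pairs, the 10 rows of highest spread, and both rapgef1 genes. Other members are named for their role, after their values were seen. The members and lists were chosen with earlier results of these data known. List members with no count and more than 1 row, not named above, were aldh1a2, arr3a, her6, gbx2, wnt8a, pvalb2, coro1a, mpeg1.1, nccrp1, lck, cd4-1, cd79b, flt1, lyve1b, ins, ctrb1, fabp2, atp6v1aa, btg4, apela, mxtx2, vtg2, vtg4, cyp19a1a, aldoca. Figures were drawn with matplotlib 3.10.9.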

Additional observations from a re-analysis of the deposited data

Results flagged for a closer look

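A row of the table without a gene name, used in none of the comparisons, held 16079 counts over the 3 controls. It was noted because it lies in data outside the measurements described above and exceeds 3 counts, the limit used for a count of 0. The outlier criterion for single values needs 4 samples, so it was not applied to the 3 controls.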

How the results depend on the processing

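The number of rows at 1 CPM in all 3 controls lay between 14753 and 20235 under every alternative, the lowest with at least 10 counts asked of each control, against 19446 as reported. Rows with no count fell to 4839, against 17908, when the rows of a name were added together, which merges 9649 nuclear tRNA rows, 9118 of them without a count, into few names. Leaving out a control gave 18705 to 19434 such rows. The 10 most abundant rows held 11.3% to 13.8% and the mitochondrial ribosomal RNAs 6.13% to 8.04% of counts when a control was left out, against means of 12.6% and 7.04%. The coefficient of variation, 10.17%, was 8.08% to 11.6% with a control left out, the lowest without control replicate 3, and 9.61% to 10.3% otherwise. The 427 pairs at least 4-fold apart became 236 at a minimum of 50 CPM and 857 with multi-row names included, and lay between 425 and 452 under the other scalings and with a control left out. Of 46 list sums, 18 moved by more than 1 SD when multi-row members were included, all upwards, a direction set by adding members to a sum. Under each of the 4 other scalings 3 moved lower. With a control left out none moved, but leaving out 1 of 3 values cannot shift their mean by 1 SD. That result therefore says nothing about single controls. The skeletal muscle sum was 16815 CPM without control replicate 1 and 20215 CPM without control replicate 3, against 18291 CPM. The pair count per coding length was not run. No paired analysis was possible because the result comes from no test between groups. Genes under about 10 CPM are limited by depth in these libraries.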
